A study of Mus musculus with 12 samples.

Results

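Transcripts of 10 dual-specificity phosphatases were followed across mouse bone marrow cells that carried empty vectors, mutated SETBP1, mutated NRAS, or the pair together. The members are the rows of the deposited count table with the symbols Dusp1, Dusp2, Dusp3, Dusp4, Dusp5, Dusp6, Dusp7, Dusp10, Dusp16 and Dusp22, which are 10 of 19910 gene symbols listed. With NRAS alone, 7 of the 10 were higher than with empty vectors, where 17.0% of all genes tested were higher and 32.5% passed in either direction. Dusp6 and Dusp5 stood at more than 4 times their level, and so did Dusp4, from few reads and with a wide error. Dusp4 passed the filter on low counts only through libraries with NRAS, and without it 6 of 9 members were higher. With SETBP1 alone, Dusp1, Dusp2 and Dusp3 were higher, where 8.31% of all genes tested were higher and 14.9% passed in either direction. The call of Dusp3 held in 10 of 23 other settings. Dusp2 did not pass when only the compared groups were fitted, where 110 of 10688 genes passed. Dusp6 and Dusp7 differed by -0.12 and -0.15 on the log2 scale, short of the threshold. Between both mutants and NRAS alone only Dusp7 passed the test among the 10 members, with a higher level when both mutants were present. Of all genes tested, 0.528% were higher in that comparison and 1.91% passed in either direction. The call of Dusp7 held in 15 of 23 other settings.

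Each group has 3 libraries, 12 in all, from marrow of female C57BL/6J mice aged 6 to 10 weeks that was transduced with retrovirus. Every group received a pair of vectors: empty with empty, SETBP1 (D868N) with empty, empty with NRAS (G12D), or SETBP1 (D868N) with NRAS (G12D). The samples are named murine leukemia cells in their titles, the empty-vector samples included. Nothing in the labels says whether replicates are separate mice, transductions or cultures, so p-values measure only the spread between these libraries, which may be technical. The vectors' promoters and the share of transduced cells are not given in the sources used here.

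Dual-specificity phosphatases remove phosphate from both tyrosine and threonine or serine. The MAP kinase phosphatases among them switch off ERK, JNK and p38 by dephosphorylating the activation loop, and each prefers some of these kinases over others. Dusp1 (MKP-1), Dusp2 (PAC-1), Dusp4 (MKP-2) and Dusp5 are nuclear enzymes whose genes are induced by mitogens or stress. Dusp6 (MKP-3) and Dusp7 (MKP-X) are cytoplasmic and selective for ERK, and Dusp5 is an ERK-selective enzyme of the nucleus. Dusp10 (MKP-5) and Dusp16 (MKP-7) act on JNK and p38, while Dusp3 (VHR) and Dusp22 (JSP-1) are small atypical members without the kinase-docking domain. RAS signals to ERK, and ERK-driven transcription of Dusp genes is a classical negative feedback loop of that pathway.

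Total counts ran from 7085894 to 8864919 per library, so that 1 read was worth 0.111 to 0.14 normalised CPM. Normalised CPM is a read count put on a common library total, with edgeR's TMM factors correcting for differences in composition. As a check of the labels, Nras had 10517 to 13502 reads in the 6 libraries with the NRAS vector and 626 to 741 in the others. Setbp1 had 5 to 17 reads in the libraries labelled with SETBP1 and 0 in the rest, too few to measure the transgene. SETBP1 replicate 3 stood apart: its log2 CPM correlated at 0.946 and 0.953 with the other libraries of its group, against 0.984 to 0.991 for the remaining 10 pairs within groups. Myeloid marker sums moved with the groups. The 10 late neutrophil genes summed to 11200 to 12600 normalised CPM with empty vectors, 5140 to 7330 with SETBP1, 5870 to 7520 with NRAS and 1990 to 2490 with both, none of them at 0. The 9 monocyte and macrophage genes summed to 1130 to 1340, 1450 to 2100, 1320 to 1380 and 1700 to 1830 in the same order, the 5 early granule genes to 24600 to 27200, 18200 to 20000, 9860 to 11500 and 5750 to 6300, and the 9 mast cell and basophil genes to 3000 to 3100, 1620 to 2300, 683 to 1170 and 355 to 538. The 5 stem and progenitor genes ran from 518 to 669, 811 to 1130, 472 to 601 and 613 to 659. A sum follows its most abundant genes and can hide members that move apart. With NRAS against empty vectors, 2 of the 9 monocyte and macrophage genes were called higher and 3 lower, at a median log2 change of -0.40. Of the 10 late neutrophil genes, 2 were called higher and 5 lower, where 17.0% of all genes were higher and 15.5% lower. The 7 T-lymphoid genes summed to at most 10.8 and the 7 B-lymphoid genes to at most 22 in any library, with Cd3e and Cd8a at 0 in every library and Pax5 likewise. In such bulk RNA, more cells of a type and more RNA per cell cannot be told apart, and the part of cell makeup in the results below was not tested.

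The upstream sequences of 4 members that the results turn on are given first, because these genes fell into different patterns: Dusp6, Dusp7 and Dusp5 rose with NRAS, and Dusp1 rose with SETBP1. Each is the stretch of 250 bases just before the transcription start, from RefSeq on GRCm38.p6, the same assembly as the mm10 build named in the submitters' processing notes. The table of promoters held 9 of the 10 members, without Dusp4. Capitals mark matches, on either strand, to the cyclic AMP response element core TGACGT (CRE), to an NF-kB type site (GGGA and CC with any 4 bases between) or to the CArG box bound by serum response factor. TGANTCA (AP-1) and CCGGAA (a longer form of the ETS core GGAA) were searched as well and had no match in these 9 stretches. The shorter GGAA was not searched and does occur in some of them, Dusp6 included.
Dusp6 (chr10:99262981-99263230, plus strand): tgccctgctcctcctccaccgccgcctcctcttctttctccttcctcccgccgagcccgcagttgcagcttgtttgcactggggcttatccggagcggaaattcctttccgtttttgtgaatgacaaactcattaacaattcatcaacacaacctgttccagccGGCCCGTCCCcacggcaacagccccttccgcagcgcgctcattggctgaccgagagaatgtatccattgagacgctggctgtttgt
Dusp7 (chr9:106368382-106368631, plus strand): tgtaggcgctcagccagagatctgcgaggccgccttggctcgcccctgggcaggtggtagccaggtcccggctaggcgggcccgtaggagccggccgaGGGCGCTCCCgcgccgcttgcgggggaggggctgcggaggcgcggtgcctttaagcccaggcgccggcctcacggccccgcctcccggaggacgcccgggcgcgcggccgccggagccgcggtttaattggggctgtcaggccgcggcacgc
Dusp5 (chr19:53528895-53529144, plus strand): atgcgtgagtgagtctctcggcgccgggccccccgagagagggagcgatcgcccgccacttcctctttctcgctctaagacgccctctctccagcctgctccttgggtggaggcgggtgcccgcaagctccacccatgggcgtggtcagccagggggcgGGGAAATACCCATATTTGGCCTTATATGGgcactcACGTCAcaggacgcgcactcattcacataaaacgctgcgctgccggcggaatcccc
Dusp1 (chr17:26508473-26508722, minus strand): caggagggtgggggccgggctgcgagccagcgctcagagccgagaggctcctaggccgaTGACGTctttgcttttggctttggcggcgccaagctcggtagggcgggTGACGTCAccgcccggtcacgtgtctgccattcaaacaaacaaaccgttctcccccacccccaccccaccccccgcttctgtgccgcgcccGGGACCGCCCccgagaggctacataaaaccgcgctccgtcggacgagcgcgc

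Dusp5 carried a pair of adjacent CArG boxes, CCATATTTGG from -82 to -73 and CCTTATATGG from -72 to -63, counted from the start site. The first of them shares 1 base with an NF-kB type match, GGGAAATACC, that begins at -91, and a CRE core lies at -56. A CArG box was found in 1.47% of 32851 RefSeq upstream stretches of the same length, and in no other member of the 9. Dusp1 held CRE cores starting at -191 and -143, the latter also read as a core on the other strand from -141, and an NF-kB type match at -52; 6.47% of all stretches had a CRE core. Dusp6 and Dusp7 had 1 NF-kB type match each, at -86 and -152, a motif present in 17.6% of all stretches. Dusp3 and Dusp22 also had 1 NF-kB type match, and Dusp2, Dusp10 and Dusp16 had no match to any motif searched. Matches to TGANTCA and CCGGAA occurred in 6.75% and 12% of all stretches. A match describes letters only, and its absence says nothing about a factor.

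**Figure D1:**
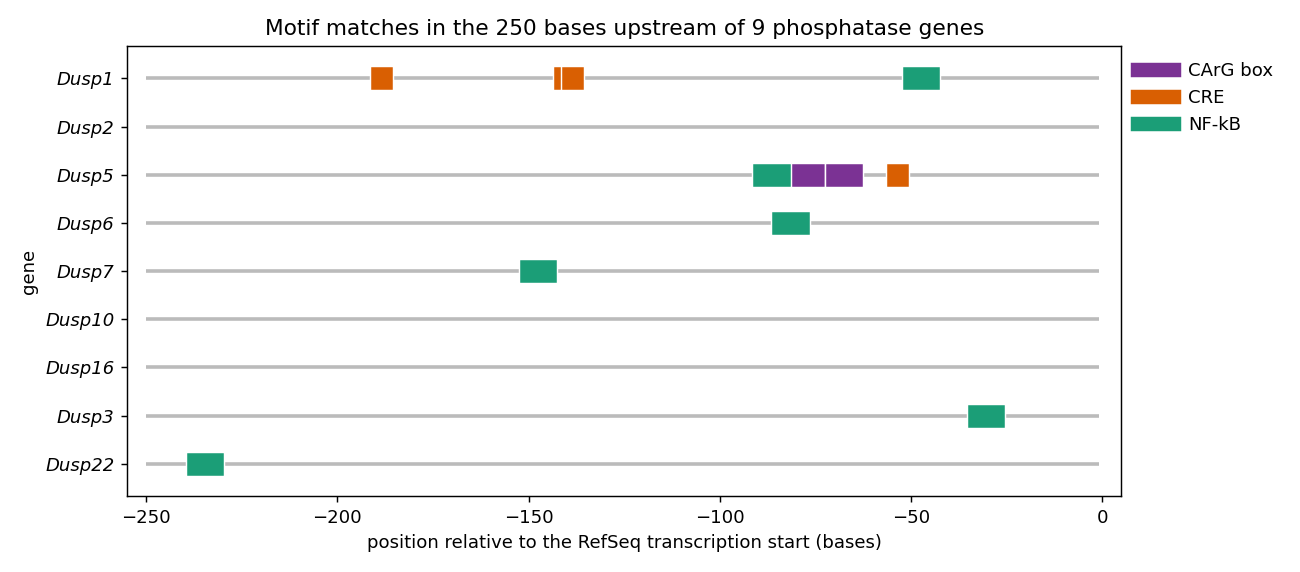
Positions of motif matches (bars, coloured by motif) in the 250 bases upstream of 9 phosphatase genes, in bases from the RefSeq transcription start. Dusp5 is the member with CArG boxes, at -82 to -63, and Dusp1 has CRE cores from -191 and -143. The letters TGANTCA (AP-1) and CCGGAA (searched for ETS) had no match.

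Expression differed widely among the members. Levels of different genes were compared as normalised CPM per kilobase of exon, using exon lengths of GENCODE vM21. In empty-vector cells Dusp6 was the most abundant at 27.1 ± 1.43 (SD, n = 3 here and for every group below), followed by Dusp7 at 13.7 ± 1.09, Dusp2 at 9.24 ± 1.47 and Dusp5 at 4.92 ± 0.515. The replicate ranges of neighbours in this order did not overlap down to Dusp5. Dusp3 at 3.85 and Dusp22 at 3.71 overlapped each other, Dusp1 followed at 2.23 and Dusp10 at 1.63, and Dusp4 at 0.429 and Dusp16 at 0.218 overlapped at the bottom. With NRAS the order was Dusp6, Dusp7, Dusp5, Dusp2 and Dusp3, at 125, 33.3, 22.1, 20.5 and 8.62 CPM per kilobase, each range separate from the next. With both mutants Dusp2 and Dusp5 overlapped, at 18.4 and 18.3. With SETBP1 alone Dusp2, at 15.4, stood above Dusp7, at 12.3, and Dusp1, Dusp3 and Dusp22 lay together between 5.23 and 5.55.

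**Figure D2:**
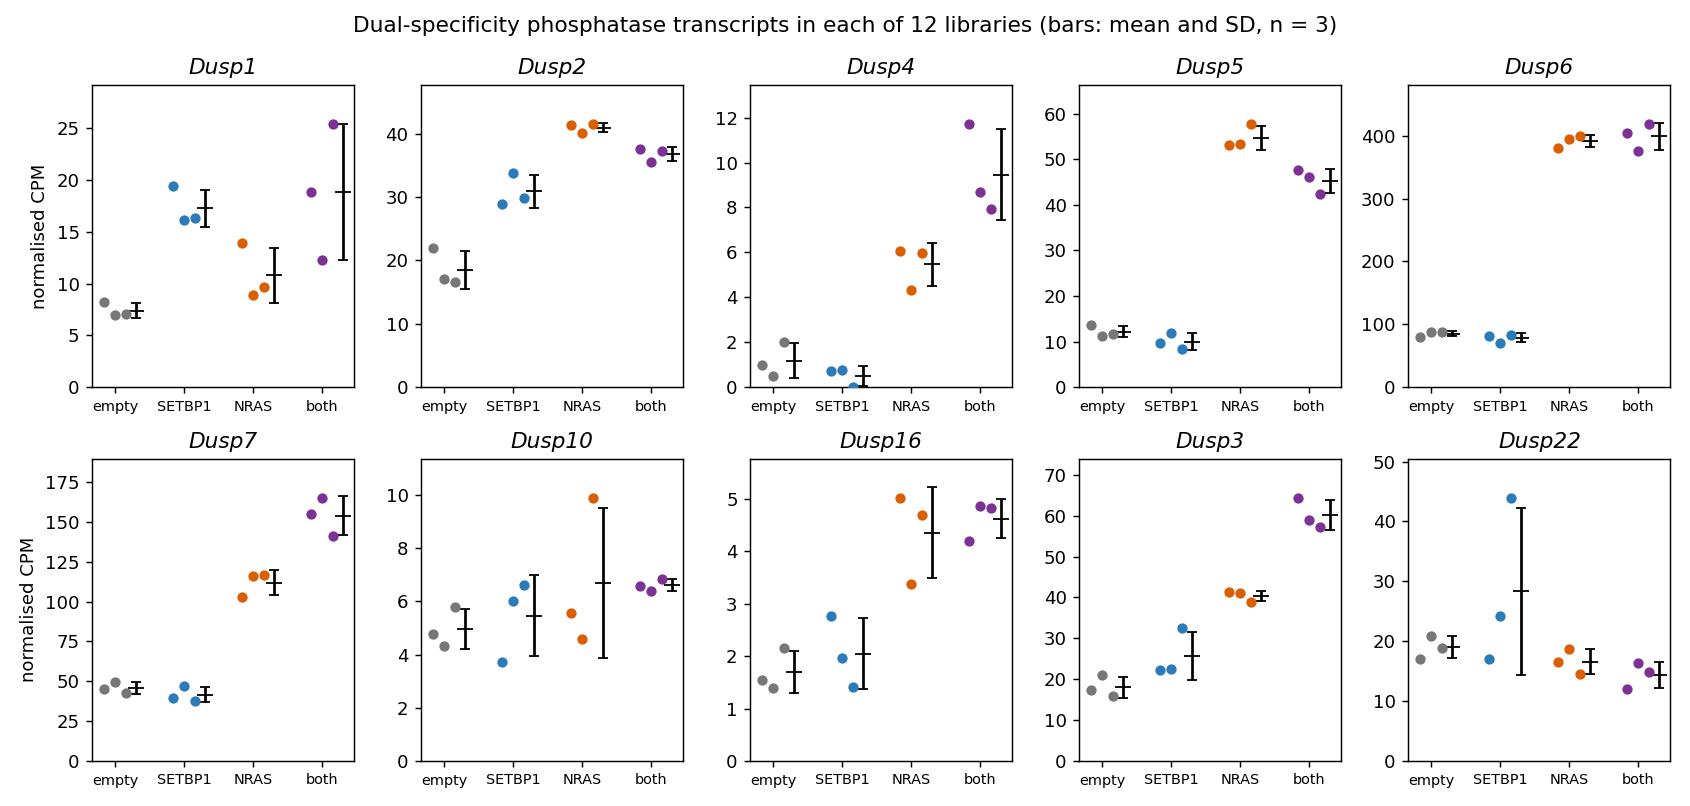
Normalised CPM (vertical axes, linear, each from 0) of the 10 phosphatases in the 12 libraries; points are libraries and bars the mean and SD of 3. Dusp6 lies between 376 and 418 in the 6 libraries with NRAS and between 70.3 and 87.7 in the others, whereas Dusp22 shows no such split and SETBP1 replicate 3 is its highest library at 43.9.

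NRAS against empty vectors asks which phosphatases change with mutant NRAS alone. Of the 10 members 7 rose and 0 fell (edgeR quasi-likelihood test, Benjamini-Hochberg adjusted p below 0.05 over all genes), against 17.0% of the 10993 genes tested that were higher, 15.5% lower and 32.5% called in either direction. All 10 members passed the filter on low counts, but Dusp4 passed only through its NRAS libraries, since 1 of 3 empty and 0 of 3 SETBP1 libraries reached the minimum. Without Dusp4 the count was 6 of 9. The median log2 fold change of the 10 was 1.22, beside -0.01 over all genes. In 8 members the libraries of the groups did not overlap, as in 56.3% of all genes. Both mutants against empty vectors, which shares those empty libraries, gave 8 of 10 higher and 0 lower (20.8% of all genes higher, 19.8% lower, 40.6% called) and a median of 1.59, or 7 of 9 and 1.44 without Dusp4; the groups of all 10 did not overlap, as in 61.2% of all genes. Both mutants against SETBP1, the NRAS change in cells with mutant SETBP1, gave 6 higher and 1 lower (20.9% of all genes higher, 21.5% lower, 42.4% called), or 5 higher and 1 lower of 9 without Dusp4, with 8 members not overlapping between groups, as in 48.8% of all genes.

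Among the cytoplasmic ERK phosphatases, Dusp6 stood at 79.9, 87.5 and 87.7 normalised CPM in the empty libraries and at 380, 394 and 399 with NRAS. It was at 81.2, 70.3 and 83.6 with SETBP1 and at 404, 376 and 418 with both mutants. The 6 libraries with NRAS lay far above the 6 without it, and within each set of 6 the groups overlapped. The log2 fold change for NRAS against empty vectors was 2.20 (SE 0.08; edgeR quasi-likelihood test, adjusted p 3.18e-10), the 11th smallest p of all genes, and for both against SETBP1 it was 2.35 (SE 0.08, adjusted p 2.02e-10). Dusp6 is located at chr10:99263231-99267489 on the plus strand of GRCm38.

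Dusp7, its closest relative in this set by substrate and location, read 45.4, 49.8 and 42.5 normalised CPM with empty vectors, 39.7, 46.8 and 37.7 with SETBP1, 103, 116 and 117 with NRAS, and 155, 165 and 141 with both. Here the libraries with both mutants were the highest and did not overlap those with NRAS alone. The rise with NRAS was 1.29 on the log2 scale (SE 0.11, adjusted p 8.23e-07), and with NRAS on top of SETBP1 it was 1.89 (SE 0.11, adjusted p 1.69e-08; edgeR quasi-likelihood tests). The gene lies at chr9:106368632-106375724, plus strand.

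Of the nuclear, inducible members, Dusp5 had the pattern nearest to that of Dusp6. It read 13.6, 11.2 and 11.7 normalised CPM with empty vectors, 9.75, 11.9 and 8.28 with SETBP1, 53.2, 53.3 and 57.7 with NRAS, and 47.6, 46.1 and 42.4 with both. The groups with NRAS were separate from those without, and the libraries with both mutants all lay below those with NRAS alone. Dusp5 rose with NRAS by 2.16 (SE 0.14, edgeR adjusted p 6.84e-08) and, in cells with SETBP1, by 2.19 (SE 0.14, adjusted p 5.86e-08). It is located at chr19:53529109-53542431, and an antisense transcript that the count table does not list overlaps its exons. Whether reads were assigned by strand is not given in the sources used here.

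Dusp4, a nuclear phosphatase of ERK and JNK at chr8:34807297-34819894, rested on few reads and passed the filter on low counts only through libraries with NRAS. It had 9, 4 and 15 reads with empty vectors, 6, 6 and 0 with SETBP1, 46, 32 and 47 with NRAS, and 84, 68 and 59 with both. All 6 libraries with NRAS were above all 6 without. The log2 fold change was 2.22 (SE 0.51, adjusted p 0.00401) for NRAS against empty vectors and 4.22 (SE 0.56, adjusted p 5.03e-05) for both against SETBP1 by the edgeR quasi-likelihood test; the size of the latter rests on the few reads of the SETBP1 group.

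Dusp2, found mainly in blood cells and at chr2:127336159-127338376, did not follow the presence of NRAS alone. Its normalised CPM was 21.9, 17.0 and 16.6 with empty vectors, 28.9, 33.8 and 29.9 with SETBP1, 41.4, 40.2 and 41.5 with NRAS, and 37.6, 35.6 and 37.3 with both. No library of the first group reached any library of the other 3 groups. The rise was 0.73 with SETBP1 (SE 0.13, edgeR adjusted p 0.00388), 1.14 with NRAS (SE 0.12, adjusted p 1.19e-05) and 0.99 with both (SE 0.13, adjusted p 2.85e-05). NRAS on top of SETBP1 changed it by 0.25 (SE 0.12, adjusted p 0.108), with a 95% interval of -0.01 to 0.52.

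Dusp1, an immediate-early phosphatase of p38, JNK and ERK, moved with SETBP1. Its normalised CPM was 8.19, 6.98 and 7.02 with empty vectors, 19.4, 16.2 and 16.3 with SETBP1, 13.9, 8.93 and 9.63 with NRAS, and 18.9, 12.3 and 25.4 with both. The SETBP1 group was separate from both the empty and the NRAS libraries, and the libraries with both mutants spread widely, with a coefficient of variation of 34.8%. The rise was 1.22 with SETBP1 (SE 0.25, edgeR adjusted p 0.00918) and 1.34 with both (SE 0.25, adjusted p 7.46e-04), against 0.54 with NRAS (SE 0.26, adjusted p 0.126), which did not pass. The GENCODE model of Dusp1, chr17:26505590-26562128 on the minus strand, reaches exons of Ergic1 on the other strand; the RefSeq model ends at 26508472, well before Ergic1. Ergic1 itself changed by -0.02 with SETBP1 (SE 0.11, adjusted p 0.902).

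The phosphatases of JNK and p38 were low. Dusp16, at chr6:134715468-134792625, read 1.55, 1.40 and 2.16 normalised CPM with empty vectors, 2.77, 1.96 and 1.42 with SETBP1, 5.02, 3.38 and 4.69 with NRAS, and 4.20, 4.86 and 4.84 with both, from 11 to 38 reads per library. Each library with NRAS exceeded each without, and the rise was 1.36 with NRAS (SE 0.33, edgeR adjusted p 0.0056) and 1.17 with NRAS on top of SETBP1 (SE 0.32, adjusted p 0.00941). Dusp10, at chr1:184013302-184075636, read 4.76, 4.32 and 5.80 with empty vectors, 3.73, 6.01 and 6.63 with SETBP1, 5.55, 4.60 and 9.89 with NRAS, and 6.57, 6.40 and 6.86 with both. Its groups overlapped except for both mutants against empty vectors. No comparison of Dusp10 passed the test; the NRAS change was 0.43 (SE 0.30, edgeR adjusted p 0.299) with a 95% interval of -0.22 to 1.09, which holds both no change and a doubling.

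The atypical members parted. Dusp3, an enzyme of ERK and JNK at chr11:101971143-101987013 with an unlisted antisense transcript over its exons, read 17.3, 21.0 and 15.9 normalised CPM with empty vectors, 22.3, 22.5 and 32.4 with SETBP1, 41.2, 41.0 and 38.9 with NRAS, and 64.3, 58.9 and 57.3 with both. The 4 groups were stacked in that order without overlap. The rise was 1.16 with NRAS (SE 0.15, edgeR adjusted p 6.28e-05), 1.74 with both (SE 0.15, adjusted p 9.29e-07) and 0.51 with SETBP1 (SE 0.16, adjusted p 0.0418). Without SETBP1 replicate 3, its highest library in that group, the last of these was 0.31 (edgeR adjusted p 0.114). That call also ended without empty replicate 1 (0.128) or 3 (0.16) and without any 1 of the 6 libraries with NRAS (adjusted p 0.0528 to 0.061), and held in 3 of the 12 fits that left out a library.

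Dusp22, linked to JNK signalling and located at chr13:30659999-30711231, read 17.1, 20.8 and 18.9 with empty vectors, 17.0, 24.2 and 43.9 with SETBP1, 16.6, 18.7 and 14.5 with NRAS, and 12, 16.4 and 14.8 with both, again in normalised CPM. SETBP1 replicate 3 stood alone at the top, with 371 reads against 86 to 185 in the other 11 libraries. The same library had the highest sums of the monocyte and macrophage (2100) and stem and progenitor genes (1130). Its sum of 5 megakaryocyte genes was also the highest (472, against 119 to 238 elsewhere). Of these 5, 1 was called higher and 0 lower with SETBP1 against empty vectors, with log2 changes from -0.70 to 1.51. The part of these 3 sets of genes in its Dusp22 level was not tested. NRAS changed Dusp22 by -0.19 against empty vectors (SE 0.27, edgeR adjusted p 0.637). It was the member that was lower with both mutants than with SETBP1, by -0.98 on the log2 scale (SE 0.27, edgeR adjusted p 0.0113); without SETBP1 replicate 3 the difference was -0.51 (adjusted p 0.0265), and without SETBP1+NRAS replicate 1 it did not pass (-0.86, adjusted p 0.052).

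**Figure D3:**
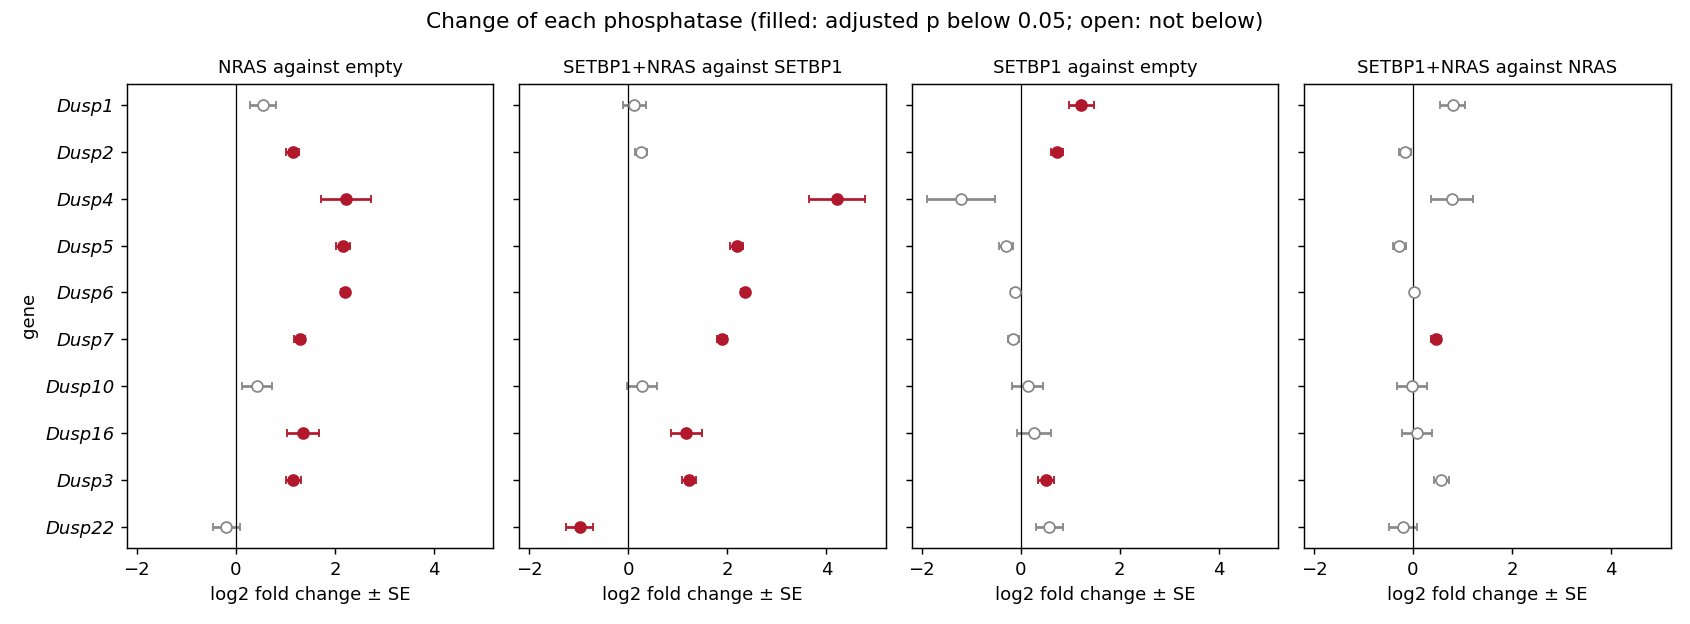
Log2 fold change with its standard error (horizontal axes) for each phosphatase in 4 comparisons; filled points have an edgeR adjusted p below 0.05. With NRAS, 7 points are filled and to the right of 0; with SETBP1 alone Dusp1, Dusp2 and Dusp3 are filled, and for both against NRAS only Dusp7 is.

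SETBP1 against empty vectors asks what mutant SETBP1 does alone. Dusp1, Dusp2 and Dusp3 rose and 0 of 10 fell, against 8.31% of all genes higher, 6.55% lower and 14.9% called; the groups of these 3 did not overlap, as in 33.2% of all genes; the median of the 10 was 0.21, beside -0.01 for all genes. The ERK-selective members gave -0.12 for Dusp6 (SE 0.08, edgeR adjusted p 0.324), -0.15 for Dusp7 (SE 0.11, adjusted p 0.345) and -0.29 for Dusp5 (SE 0.15, adjusted p 0.181). Their 95% intervals ran from -0.29 to 0.06, -0.38 to 0.08 and -0.61 to 0.03. The monocyte and macrophage sum and the stem and progenitor sum, given above, were higher in the same SETBP1 libraries. Of the 9 monocyte and macrophage genes, 6 were called higher and 0 lower. Of the 5 stem and progenitor genes, 1 was called higher and 0 lower, and 3 had a positive log2 change, in a range from -0.96 to 0.82. The part of these genes in the rise of the 3 members was not tested. When only the 6 libraries of this comparison were fitted, Dusp1 alone of the 10 members passed. That fit called 110 of 10688 genes, against 1633 of 10993 in the main fit.

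Both mutants against NRAS asks what SETBP1 adds when NRAS is present. Dusp7 rose by 0.46 (SE 0.10, edgeR adjusted p 0.0344), a level 1.37-fold higher, and was the 1 member of 10 that passed, against 0.528% of all genes higher, 1.38% lower and 1.91% called. Dusp3 was higher in all 3 libraries, by 0.58 (SE 0.14), at an edgeR adjusted p of 0.0652. Dusp1 differed by 0.80 (SE 0.24, adjusted p 0.142) and Dusp4 by 0.79 (SE 0.42, adjusted p 0.532). For Dusp6 the difference was 0.03 (SE 0.08, adjusted p 0.961) with a 95% interval of -0.13 to 0.19. Dusp5 and Dusp2 differed by -0.27 (SE 0.13, adjusted p 0.426) and -0.16 (SE 0.12, adjusted p 0.746), although neither had overlapping libraries. In 5 of 10 members the groups did not overlap, as in 25.2% of all genes. The call of Dusp7 was lost without empty replicate 1, without any 1 of the NRAS libraries and without any 1 of the libraries with both mutants, at adjusted p from 0.052 to 0.168, while its log2 change stayed between 0.40 and 0.52. Scaling by library size alone also ended it (0.43, adjusted p 0.0718). Dusp3 passed without SETBP1 replicate 1 (0.0441) or 3 (9.13e-04), and Dusp1 without SETBP1 replicate 3 (0.0297) or SETBP1+NRAS replicate 2 (0.045). Neutrophil, granule and mast cell sums were lower, and the monocyte and macrophage sum higher, in the same libraries; their part was not tested.

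The interaction asks whether the SETBP1 change differs between cells with and without NRAS. By the edgeR quasi-likelihood test 0 of 10 members passed (0.0455% of all genes did, 0.00910% higher and 0.0364% lower), and 3 had an unadjusted p below 0.05, namely Dusp2, Dusp7 and Dusp4, as had 1420 of 10993 genes. DESeq2 called 2 members, Dusp2 and Dusp7, among 93 genes, against 5 genes by edgeR. Dusp2 had the 13th smallest p of all genes, at -0.89 (SE 0.17, adjusted p 0.143): SETBP1 came with a rise of 0.73 without NRAS and a difference of -0.16 with it. Without SETBP1 replicate 3 its adjusted p was 0.0111 and without SETBP1 replicate 1 it was 0.0431, at -0.91 and -0.94. Dusp7 departed the other way, by 0.61 (SE 0.15, edgeR adjusted p 0.184), and Dusp4 by 2.00 (SE 0.80, adjusted p 0.344). With DESeq2 the adjusted p was 0.00176 for Dusp2 and 0.0259 for Dusp7.

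Summed by substrate, the ERK-selective transcripts (Dusp5, Dusp6 and Dusp7) rose from 45.7 ± 1.41 normalised CPM per kilobase with empty vectors to 180 ± 6.19 with NRAS, and were at 41.4 ± 0.267 with SETBP1 and 192 ± 3.32 with both. The sum of Dusp10 and Dusp16 was 1.85 ± 0.302, 2.76 ± 0.985, 2.06 ± 0.416 and 2.77 ± 0.0956 in the same order. The ratio of the sums was 20.8 to 29.6 with empty vectors, 17.5 to 26.4 with SETBP1, 48.2 to 93.5 with NRAS and 66.9 to 72.1 with both, so that the libraries with NRAS did not overlap those without it. These sums over chosen members are given as a description, with no test. Dusp6 made up 40.5% ± 2.29 of the summed level of all 10 members with empty vectors, 33.2% ± 3.10 with SETBP1, 56.6% ± 0.404 with NRAS and 53.6% ± 1.86 with both. The 3 ERK-selective genes held 68.2%, 55.0%, 81.7% and 80.7% of it. Dusp7 held 15.1% ± 0.755 with NRAS and 19.3% ± 1.91 with both.

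**Figure D4:**
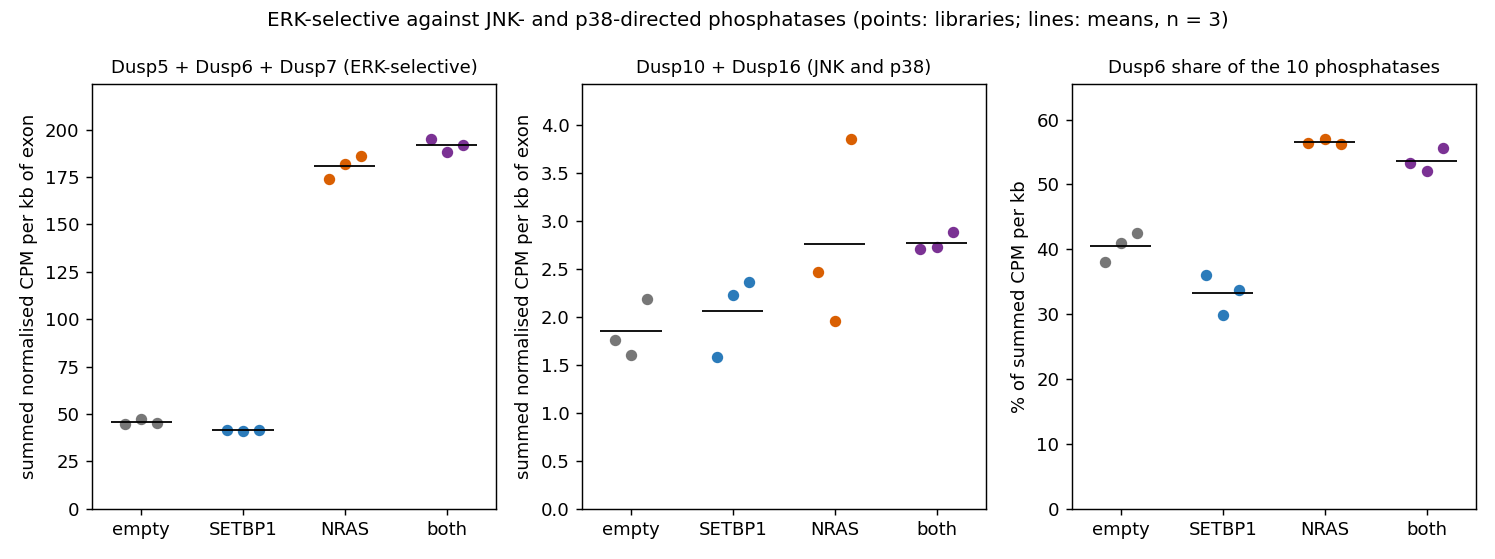
Summed normalised CPM per kilobase of exon of ERK-selective (left) and JNK- and p38-directed phosphatases (middle), and the percentage of the 10-gene sum that is Dusp6 (right), on linear axes from 0; points are libraries and lines means of 3. The left sums lie between 174 and 195 with NRAS and between 41.2 and 47.3 without. The middle sums lie between 1.58 and 3.85. With both mutants they run from 2.7 to 2.88, above the highest library without NRAS at 2.36, and with NRAS alone from 1.95 to 3.85.

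Dusp6 shared its profile most closely with Clec5a, Myo1e, Endod1, Dok2 and Plek among 9073 genes with a mean of at least 50 reads. Their centred log2 CPM lay within a root mean square of 0.194 to 0.226 of Dusp6 over the 12 libraries, for a gene whose own SD was 1.19. Clec5a, a myeloid lectin receptor, went from 128 normalised CPM with empty vectors to 544 with NRAS, and Dok2, an adaptor that restrains RAS signalling, from 49.3 to 244. Of the other members Dusp5 was nearest to Dusp6, at 0.234, then Dusp7 at 0.407, Dusp16 at 0.616 and Dusp3 at 0.627, with Dusp22 farthest at 1.45. For Dusp1 the nearest genes were Gdpd1, Lgmn, Phf11d, Marcksl1 and Bcl2a1d at 0.320 to 0.341, a looser match, since the SD of Dusp1 itself was 0.61, and Lgmn, a lysosomal protease, was at 54.8 normalised CPM with empty vectors and 123 with SETBP1.

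Other genes of the pathway gave a setting for these changes. Of 14 ERK response genes outside the family, 11 rose and 0 fell with NRAS, with a median of 2.40, where 17.0% of all genes were higher; Fosl1, an AP-1 subunit, rose by 3.96 (SE 0.19) and Egr1, an immediate-early factor, by 3.94 (SE 0.26). With SETBP1 alone 1 of the 14 rose and 0 fell, at a median of 0.03, a share near the 8.31% of all genes that were higher. That gene was Egr1, at 1.16 (SE 0.26, edgeR adjusted p 0.0137). Of 13 stress and immediate-early genes tested, 8 rose and 0 fell with SETBP1 and 9 rose and 1 fell with NRAS, with medians of 0.66 and 0.75; of all genes 8.31% were higher and 6.55% lower with SETBP1, and 17.0% and 15.5% with NRAS. Junb, an AP-1 subunit, rose by 1.02 with SETBP1 (SE 0.11) and 1.12 with NRAS (SE 0.11), and Fos by 1.5 with SETBP1 (SE 0.23). For both mutants against NRAS, 0 of the 14 ERK response genes and 1 of the 13 stress genes, Atf3, passed. Atf3 stood at 0.75 (SE 0.18, edgeR adjusted p 0.0475). Of all genes 1.91% passed in that comparison and 0.528% were higher, so 0 of 14 does not set the ERK response genes apart.

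Kinases that these phosphatases act on, and kinases above them, were listed as well. With NRAS, Map2k1 (MEK1) rose by 0.47 (SE 0.08, edgeR adjusted p 7.02e-04) and Mapk3 (ERK1) fell by 0.61 (SE 0.10, adjusted p 4.42e-04). Of 11 JNK and p38 pathway kinases tested, 1 rose and 2 fell with NRAS, a share near the 32.5% of all genes called: Map2k3 by 0.27 (SE 0.09), and Map2k6 and Mapk13 at -1.09 (SE 0.29) and -0.97 (SE 0.32). With SETBP1 alone Mapk14 (p38 alpha) fell by 0.44 (SE 0.10, edgeR adjusted p 0.0147).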

How the data were processed

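RNA of transduced mouse bone marrow was sequenced in 12 libraries. The deposited values are read counts, 1 whole number for each gene symbol and library, in a single table by the authors; the submitters' processing notes name mm10, STAR and DESeq2 with no role or version, and counting tool, annotation, strand and multimapping rules are not given in the sources used here. From these counts edgeR 4.0.16 (R 4.3.3) gave log2 fold changes with TMM scaling, filterByExpr (minimum count 10, minimum total 15) and a quasi-likelihood F test on 4 group means over all 12 libraries, two-sided, Benjamini-Hochberg adjusted over the 10993 genes tested, at a threshold of 0.05. SE is the size of the log2 change divided by the square root of F; 95% intervals use the fit's degrees of freedom. The steps were tested on simulated counts. Log2 CPM for profiles had a prior count of 2. Positions and exon lengths are from GENCODE vM21 (GRCm38), promoters from RefSeq GRCm38.p6. Named beside the members were up to 3 genes per list and comparison with the largest change past the threshold and a mean of at least 50 counts in the highest group, and the 5 nearest profiles to Dusp6 and Dusp1; some genes this rule names are not reported here. The members, lists, motifs and settings were chosen with earlier results of these data known. Alternatives were DESeq2 1.42.0, limma-voom (limma 3.58.1) with and without sample quality weights, other scalings and filters, a replicate block, a robust fit, the compared groups only, a threshold of 0.01 and leaving out each library. No 2 libraries of a group agreed within sampling noise: chi-square per degree of freedom was at least 2.71.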

Additional observations from a re-analysis of the deposited data

How the results depend on the processing

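The 7 members that rose with NRAS against empty vectors passed under each of 23 other settings, those that left out 1 of the 12 libraries included, and so did the 8 members that rose with both mutants against empty vectors. Of 1369 values of members under other settings, 1323 kept their side of the threshold, 24 lost a call, 22 gained one and 0 called values changed sign. For SETBP1 against empty vectors 3 members passed, and 1 when only the compared groups were fitted. Calls over all genes went from 1633 of 10993 to 110 of 10688 in that fit, and the cause was not tested. Without 1 library 2 to 4 members passed, and 390 to 3191 of all genes. Dusp3 was lost in 13 of 23 settings, with adjusted p from 0.0156 to 0.185. Dusp2 was lost in 1, at 0.0799. For both mutants against NRAS the count of 1 became 0 at a threshold of 0.01, 2 with DESeq2 and with limma-voom, 4 with sample quality weights and 4 with only the compared groups, and ran from 0 to 3 without 1 library; the cause was not tested. Calls over all genes moved with it, from 210 to 379 with DESeq2, 184 with limma-voom, 1038 with quality weights, 883 with only the compared groups and 93 to 836 without 1 library. Dusp3 passed in 7 of those settings (adjusted p from 1.41e-04 to 0.26) and Dusp7 in 15 of 23 (from 2.30e-04 to 0.168). For the interaction the count of 0 became 2 with DESeq2 (93 genes called in all, against 5), 1 with sample quality weights (351), and ran from 0 to 1 without 1 library (1 to 110). With library size as the only scaling, the all-gene median was -0.10 for NRAS and -0.13 for both mutants against empty vectors, with the same members called; for both against NRAS it called Dusp3 in place of Dusp7. With the replicate number as a block, 2, 7, 8, 1 and 7 members passed in the 5 pairwise comparisons, in the order SETBP1, NRAS and both against empty vectors, then both against NRAS and against SETBP1, and 0 in the interaction. Libraries of the same number correlated in their deviations from group means at -0.127 to 0.124, with 1 of 18 pairs above 0.1, so the numbers do not show a pairing. Depth limits Dusp4, Dusp10 and Dusp16 most: 0 to 84 reads per library lay behind their values.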

Other observations

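Of the other 20 dual-specificity phosphatase and Styx symbols looked for, 17 were in the table and 9 were tested. With NRAS 3 rose and 0 fell (17.0% of all genes were higher): Dusp12 by 0.65 (SE 0.16, edgeR quasi-likelihood adjusted p 0.00624), Dusp11, an RNA phosphatase, by 0.36 (SE 0.09, adjusted p 0.00608), and Dusp14, at 0 to 4 reads with empty vectors and 4 to 17 with NRAS. Dusp14, named after its values were seen, had 24 to 32 reads with both mutants. With both mutants against empty vectors 4 of the 9 rose and 1 fell, where 20.8% of all genes were higher and 19.8% lower. The lower gene was Dusp28, at -1.12 (SE 0.37, edgeR adjusted p 0.0247). Dusp9, the remaining cytoplasmic ERK phosphatase, had 4 to 21 reads per library and Dusp8, a JNK phosphatase, 0 to 6, the latter below the filter.

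The tyrosine phosphatases that also dock on MAP kinases parted. Ptpn7, the form of blood cells, stood at 248 ± 9.95 normalised CPM (SD, n = 3) with empty vectors and 327 ± 8.22 with NRAS, a rise of 0.40 (SE 0.07, edgeR adjusted p 6.47e-04). Ptpn5 and Ptprr fell outside the naming rule and were chosen after their values were seen. Ptpn5 had 0 reads in each empty library, 1 to 3 with SETBP1 and 15 to 23 with NRAS. Ptprr had 22 to 24 reads with empty vectors, 0 to 6 with SETBP1 and 1 to 7 with NRAS.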
